A study of Mus musculus with 463 samples.

Results

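Genes that build, load and release hormone granules were followed through 3 stages of the dorsal and ventral mouse pancreas. They are 35 genes chosen by symbol, in 7 classes: granule cargo (Chga, Chgb, Scg2, Scg3, Vgf and Resp18), prohormone processing (Pcsk1, Pcsk2, Cpe, Pam, Scg5 and Pcsk1n), granule membrane (Ptprn, Ptprn2 and Slc30a8), Rab GTPases and Rab effectors (Rab3a, Rab3b, Rab3c, Rab3d, Rab27a, Rab37, Rph3al and Sytl4), synaptotagmins (Syt4, Syt7 and Syt13), SNAREs and complexin (Snap25, Stx1a, Vamp2 and Cplx2), and priming and docking (Cadps, Cadps2, Unc13a, Rims2 and Baiap3). All 35 were present among the 40824 genes of both the bulk and the single-cell count tables, and all 35 passed the filter on low counts in both. Bulk RNA-seq, with 2 libraries per group, covered Pdx1-GFP+ cells of E10.5 embryos (E, embryonic day), Ngn3-GFP cells of E14.5 embryos in a high and a low gate, each dorsal and ventral, and dorsal and ventral Ins1-RFP+ cells of Insulin-RFP embryos at E17.5. Smart-seq2, a full-length single-cell method, covered 447 cells: Pdx1-GFP+ cells of each side at E9.5 and E10.5, Pdx1-high and Pdx1-low cells of each side at E10.5, ventral Pdx1-low cells sorted further by the liver bud antibody Liv2, Liv2+ liver bud cells at E10.5, and tdTomato+ liver cells of Pdx1-Cre ROSA26-tdTomato embryos at E15.5. Except for the Liv2+ liver bud, each group was sorted on a fluorescent reporter whose construct the labels do not describe, each bulk library pools sorted cells, and the reporter changes with the stage.

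Endocrine cells store peptide hormones in dense-core granules. Granins such as chromogranins and secretogranins condense with prohormones in the trans-Golgi network, convertases and carboxypeptidase E cut the prohormones as the granule acidifies, and Rab GTPases with their effectors carry granules to the plasma membrane. There, priming factors prepare the SNARE complex of syntaxin, SNAP-25 and VAMP2, and calcium-binding synaptotagmins trigger fusion. In the pancreas these genes are known as part of the program that follows Neurog3, the transcription factor that starts endocrine differentiation, and the dorsal bud is known to form glucagon cells early.

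Reads on genes numbered 8779418 to 24551520 in bulk libraries and a median of 1064163 (201191 to 1738015) in single cells. Levels are counts per 1000000 reads (CPM) of the scaled library total, and a mean ± SD is over the libraries or sets of a group. Cells were summed by the numbered set in their labels, and the 37 sets of 3 or more cells in 11 groups served as replicates. What a numbered set stands for (embryo, litter, sort or plate) is not in the labels, nor is the origin of the bulk libraries, so p-values measure only the spread between these samples, which may be technical. Differences were tested with edgeR's quasi-likelihood test over all genes, with Benjamini-Hochberg adjusted p-values and a threshold of 0.05. Shares of all genes called are those of this test, and none was computed for the alternative test DESeq2. Whether groups overlapped is given as description, since its share over all genes was not computed. Marker levels followed the labels for the Ngn3 gates, Ins1+ cells and Pdx1-high and Pdx1-low gates. Neurog3 stood at 860.3 to 1011 CPM in Ngn3-high against 98.4 to 149 in Ngn3-low libraries, and Ins1 at 24166 to 31331 in E17.5 libraries. Pdx1 stood at 166 to 324 in Pdx1-high against 0 to 48.3 in Pdx1-low sets. Under the Pdx1+ label it varied more: dorsal E10.5 sets ran from 3.63 to 258 CPM, the lowest within the Pdx1-low range. In E10.5 Pdx1+ bulk libraries, Pdx1 stood at 236 to 244 CPM dorsally and 99.5 to 112 CPM ventrally. Gcg, the glucagon gene, stood at 22816 to 50290.4 CPM in dorsal Pdx1-low sets. Of 44 ventral E9.5 cells, 25 carry a growth protocol of human stem cells in their labels and were kept as mouse cells.

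At E10.5, dorsal Pdx1-low cells held most of the granule and exocytosis genes at levels far above those of dorsal Pdx1-high cells. Over 6 dorsal Pdx1-low and 5 dorsal Pdx1-high sets, 30 of the 35 genes were higher in Pdx1-low cells, none was lower, and 5 did not pass the test (Rab3b, Sytl4, Cadps, Cadps2 and Rims2). Of all genes tested, 11.1% were higher. The median log2 fold change of the 35 was 4.71, against 0.00 for all genes. Summed, the 35 genes took 1.01% of the scaled library total in dorsal Pdx1-low sets (0.745 to 1.14%). In dorsal Pdx1-high sets they took 0.0637% (0.0420 to 0.0909%). The plot of 12 of these genes by set shows where sets overlap and where they do not.

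**Figure D1:**
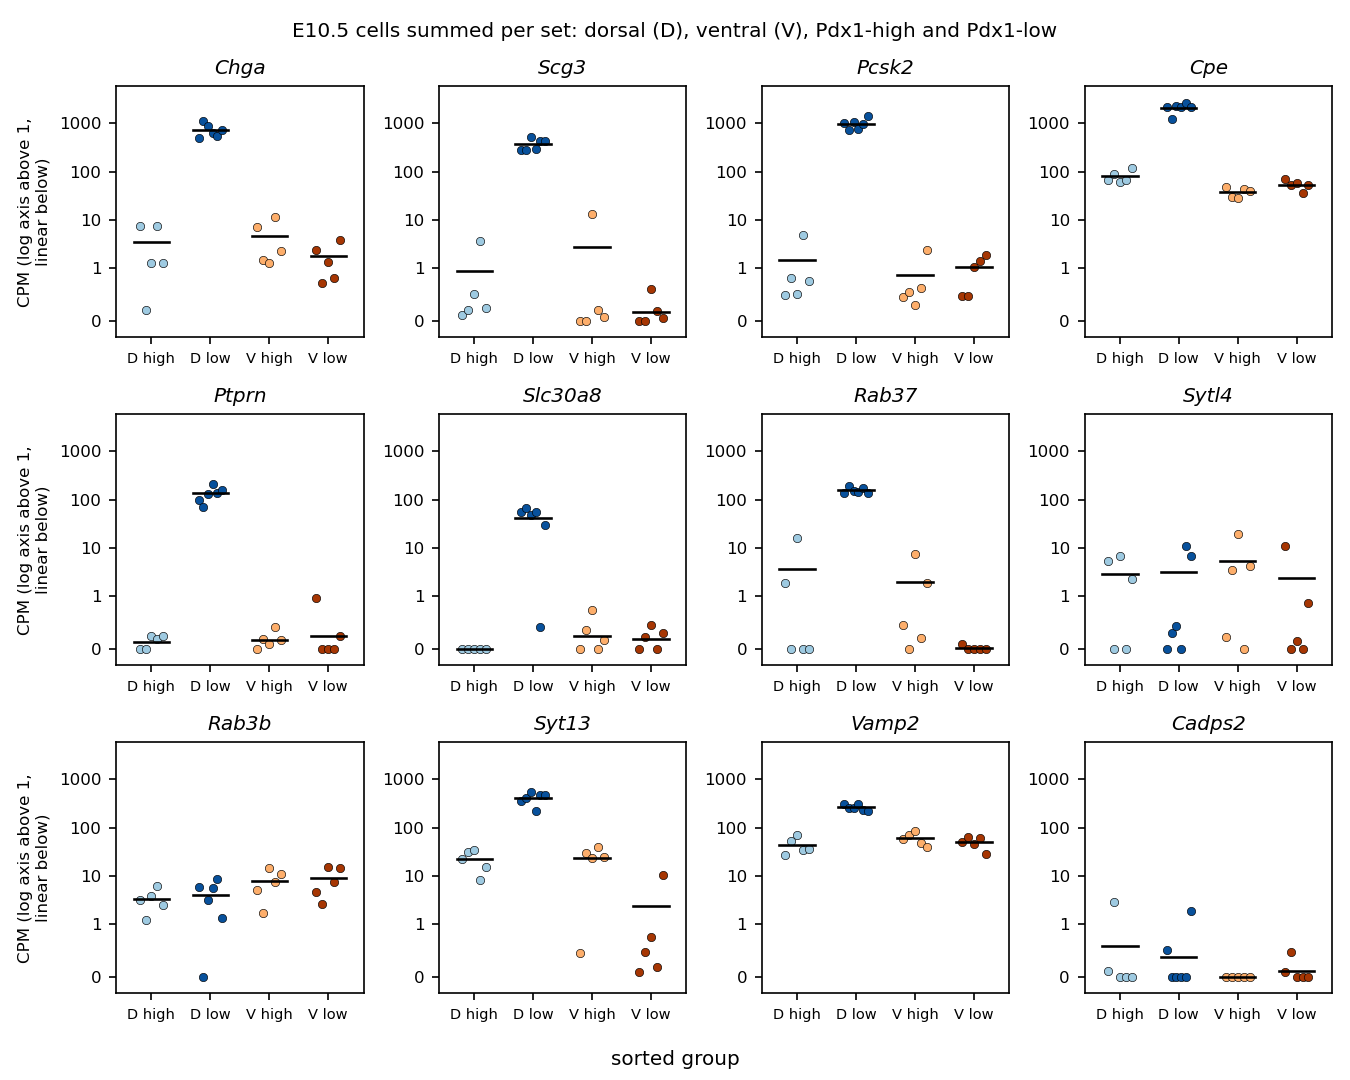
Level in CPM (log axis above 1, linear below) of 12 of the 35 genes in E10.5 cells summed per set, by sorted group; each point is a set and each bar the mean (5 dorsal Pdx1-high, 6 dorsal Pdx1-low, 5 ventral Pdx1-high and 5 ventral Pdx1-low sets). Dorsal Pdx1-low sets stand above the other 3 groups for Chga, Scg3, Pcsk2, Cpe, Ptprn, Rab37, Syt13 and Vamp2, for Slc30a8 in 5 of 6 sets, and the groups overlap for Sytl4, Rab3b and Cadps2.

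All 6 cargo genes were higher in dorsal Pdx1-low than in dorsal Pdx1-high sets. Chga, the chromogranin that drives granule formation, was at 509.8 to 1116 CPM (median 673) in dorsal Pdx1-low sets, and at 0.204, 1.24, 1.27, 7.32 and 7.39 CPM in dorsal Pdx1-high sets (log2 fold change 7.65, SE 1.27, adjusted p = 8.30e-05). Scg2, which encodes secretogranin II, showed the smallest of the 6 changes, from 0, 0.200, 0.497, 0.508 and 5.33 CPM to 36.9 to 393 CPM (median 266) (log2 fold change 7.35, SE 1.27, adjusted p = 0.000115). The groups did not overlap for any of these cargo genes. Resp18, a granule protein of endocrine and neuroendocrine cells, was at 53.6 to 99.2 CPM (median 81.8) in Pdx1-low sets, while only 3 reads fell on it in all Pdx1-high sets (adjusted p = 1.00e-05). Vgf, a granin-like precursor, had 1 read in all Pdx1-high sets and 6.07 to 39.8 CPM (median 15.7) in Pdx1-low sets (adjusted p = 0.00605, but 0.0676 over sets of 5 or more cells). Scg3, which tethers granins to the granule membrane, averaged 376 ± 105 CPM (SD, n = 6) against 0.935 ± 1.49 CPM (SD, n = 5), and Chgb, the second chromogranin, 637 ± 435 against 1.83 ± 1.97 CPM.

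Short stretches of promoter are shown for 4 of these genes because the cyclic AMP response element (CRE), a motif through which calcium and cyclic AMP signalling is known to act on granin genes, marks several cargo and convertase promoters. RefSeq windows of 250 bases before and 50 after the start (build GRCm38.p6) were found for 25 of the 35 genes, in 29 windows. The full element TGACGTCA, which reads the same on both strands, lay in 3 of the 29 windows (10.3%), those of Chgb, Pcsk1 and Scg2, and in 1.79% of all 32851 windows. The shorter TGACG or its reverse complement, which the full element contains on both strands, lay in 14 of 29 windows (48.3%) and in 20.8% of all windows. The E-box CAGATG, on either strand, lay in 1 of 29 windows, that of Cadps, and in 17.2% of all windows. In the 30-base stretches the capitals mark the full element, and in Chga the shorter TGACG, with the position of its first base counted back from the start.
Chgb (chr2:132781559-132781588, strand +, motif from base -72): gggctgctccgTGACGTCAgggctgagcga
Scg2 (chr1:79440076-79440105, strand -, motif from base -68): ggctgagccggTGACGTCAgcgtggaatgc
Pcsk1 (chr13:75089768-75089797, strand +, motif from base -78): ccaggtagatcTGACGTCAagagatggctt
Chga (chr12:102554886-102554915, strand +, motif from base -44): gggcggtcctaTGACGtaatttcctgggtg
In Chgb and Scg2 the full element lies inside the annotated gene, which begins at 132781278 (strand +) and at 79440120 (strand -). The RefSeq start from which positions are counted lies downstream of these 2 annotated starts. In Pcsk1 the same element is seen within the 219 bases that precede the annotated gene (chr13:75089607-75089825, strand +). The window before Sytl4 (chrX:133981813-133982062, strand -) holds neither it nor CAGATG, like most windows of the list. Both are 5′ to 3′.
Pcsk1: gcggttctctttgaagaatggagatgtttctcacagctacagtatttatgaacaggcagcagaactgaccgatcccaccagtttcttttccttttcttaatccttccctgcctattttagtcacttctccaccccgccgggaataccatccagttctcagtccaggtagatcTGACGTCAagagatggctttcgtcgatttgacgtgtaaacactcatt
Sytl4: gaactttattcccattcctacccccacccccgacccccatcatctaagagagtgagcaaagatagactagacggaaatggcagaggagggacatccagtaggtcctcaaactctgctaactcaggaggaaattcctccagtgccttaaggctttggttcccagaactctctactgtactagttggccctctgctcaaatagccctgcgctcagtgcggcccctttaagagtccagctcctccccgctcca
A match to these letters is a description of the sequence. Chga, Chgb, Scg2 and Pcsk1 were among the 30 of 35 genes that stood higher in dorsal Pdx1-low cells, and Chgb parted from the other 3 between E14.5 and E17.5, as given further on. Any link between these motifs and the levels was not tested.

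The processing enzymes and their chaperones rose together in dorsal Pdx1-low cells, 6 of 6. Cpe, which trims basic residues from cut prohormones, was the most abundant per transcript length of all 35 genes in these cells, at 1022 CPM per kilobase of gene length (RPKM), ahead of Chga at 389, Pam at 372 and Chgb at 233 RPKM. Pcsk1, the prohormone convertase 1/3, was at 39.0 to 563 CPM (median 188) in Pdx1-low sets, and 1 read fell on it in all Pdx1-high sets (adjusted p = 4.58e-08). Pcsk2, the convertase that releases glucagon, averaged 997 ± 252 CPM in Pdx1-low and 1.47 ± 1.86 CPM in Pdx1-high sets (log2 fold change 9.40, SE 1.16, adjusted p = 1.86e-06). Pam, which amidates peptide ends, was already present in Pdx1-high sets at 171, 210.0, 255, 307 and 538 CPM, and at 463 to 1848 CPM (median 1717) in Pdx1-low sets (log2 fold change 2.37, SE 0.57, adjusted p = 0.00344). The lowest Pdx1-low value of Pam and the lowest of Cpe, 1221 CPM, came from the same set, number 2. Scg5, the chaperone 7B2 of Pcsk2, averaged 257 ± 97.8 against 15.8 ± 12.2 CPM, and Pcsk1n, the inhibitor proSAAS of Pcsk1, 227 ± 126 against 0.971 ± 0.702 CPM.

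All 3 granule membrane genes were higher in dorsal Pdx1-low cells. Slc30a8 (GRCm38 chromosome 15, 52295553 to 52335798) encodes the zinc transporter ZnT8 that fills insulin granules. It drew no read in any of the 5 dorsal Pdx1-high sets and stood at 0.418 to 65.6 CPM (median 51.0) in Pdx1-low sets, at least 365-fold higher by a floor of 3 reads over the group (adjusted p = 0.000105). Its lowest value came from set 5, while the other 5 sets held 29.9 to 65.6 CPM. Ptprn2, the receptor-like phosphatase protein phogrin, was at 169 to 352 CPM (median 209) in Pdx1-low and at 0.204, 0.868, 14.8, 26.9 and 31.1 CPM in Pdx1-high sets (log2 fold change 4.04, SE 1.09, adjusted p = 0.00808), so the groups were apart. Its paralog Ptprn, known as IA-2, averaged 135 ± 49.7 CPM in Pdx1-low sets, with 3 reads in all Pdx1-high sets.

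Of the 8 Rab GTPases and effectors, 6 were higher in dorsal Pdx1-low sets. Rab3c averaged 16.9 ± 11.7 CPM in Pdx1-low sets, and 3 reads fell on it in all Pdx1-high sets (adjusted p = 0.000365). Rab37, a Rab of endocrine and mast cell granules, was at 137 to 189 CPM (median 149) in Pdx1-low and 0, 0, 0, 1.86 and 16.3 CPM in Pdx1-high sets (log2 fold change 5.45, SE 1.15, adjusted p = 0.000802). The smallest change that passed was that of Rph3al, or Noc2, an effector of Rab3 and Rab27 needed for endocrine secretion, at 94.3 to 263 CPM (median 136) in Pdx1-low and 7.81, 9.57, 14.8, 32.6 and 159.7 CPM in Pdx1-high sets (log2 fold change 1.89, SE 0.63, adjusted p = 0.027). That call was lost when any 1 of 6 sets was left out (adjusted p = 0.0559 to 0.0748). Rab3a averaged 122 ± 52.4 against 6.89 ± 11.5 CPM and Rab3d 130.0 ± 57.9 against 3.89 ± 3.66 CPM. Rab27a, a Rab that docks granules, ranged from 103 to 158 CPM in Pdx1-low and from 0.762 to 15.2 CPM in Pdx1-high sets. The 2 that did not pass were low in every set: Rab3b ranged from 0 to 8.37 CPM and Sytl4, the Rab27 effector granuphilin, from 0 to 10.9 CPM in Pdx1-low sets, against 1.22 to 6.19 and 0 to 6.86 CPM in Pdx1-high sets.

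Synaptotagmins and SNAREs were higher in dorsal Pdx1-low sets, 3 of 3 and 4 of 4. Syt7, the high-affinity calcium sensor of granule fusion, drew no read in the 5 dorsal Pdx1-high sets and stood at 43.3 to 60.9 CPM (median 51.6) in Pdx1-low sets, at least 451-fold higher by the 3-read floor (adjusted p = 3.24e-05). Syt13, an atypical synaptotagmin that does not bind calcium, was at 221 to 542 CPM (median 440.4) against 8.18, 15.4, 22.3, 31.1 and 34.8 CPM (log2 fold change 4.21, SE 1.03, adjusted p = 0.00381). For Syt4, another member without calcium-triggered fusion of its own, the level was 31.4 ± 10.48 CPM (SD, n = 6), with 1 read in all Pdx1-high sets. Snap25, the plasma membrane SNARE of neurons and endocrine cells, was at 78.9 to 154 CPM (median 105) against 0.248, 0.497, 1.78, 6.99 and 10.2 CPM (log2 fold change 4.76, SE 1.19, adjusted p = 0.00398), a call lost over sets of 5 or more cells (adjusted p = 0.0689). Vamp2, the granule SNARE, was present in all sets of both groups and changed least, at 216 to 310.0 CPM (median 257) against 27.4, 33.7, 35.8, 53.7 and 68.6 CPM (log2 fold change 2.59, SE 0.42, adjusted p = 3.89e-05). Stx1a averaged 87.4 ± 20.1 against 13.7 ± 11.8 CPM, and Cplx2, a complexin that clamps and assists SNARE complexes, 115 ± 12.3 against 18.05 ± 17.97 CPM.

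Priming and docking genes were the least uniform class, with 2 of 5 higher and none lower. Baiap3, a Munc13-like protein of dense-core granules, was at 198 to 528 CPM (median 364) in Pdx1-low and 0, 0, 0.200, 23.9 and 47.2 CPM in Pdx1-high sets (log2 fold change 4.69, SE 1.33, adjusted p = 0.0112). Unc13a, the priming factor Munc13-1, was at 25.6 to 64.7 CPM (median 45.9) against 0, 6.82, 7.98, 8.89 and 10.8 CPM (log2 fold change 2.73, SE 0.94, adjusted p = 0.0339), and its call was lost when any 1 of 5 sets was left out (adjusted p = 0.0533 to 0.0625). Cadps, the granule priming factor CAPS1, missed the threshold at 23.4 ± 10.6 against 1.30 ± 2.08 CPM (adjusted p = 0.0709), and passed it when 1 set was left out (adjusted p = 0.0423). It also passed in DESeq2, which called 31 of the 35 higher, with no share of all genes computed. Rims2, an active-zone protein that binds Rab3, averaged 40.3 ± 14.6 against 22.5 ± 18.9 CPM (adjusted p = 0.446). Cadps2, the paralog CAPS2, stayed at 0 to 1.81 CPM in Pdx1-low and 0 to 2.85 CPM in Pdx1-high sets.

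Summed markers of several endocrine types, of neurons and of hepatoblasts were higher in the same sets. The 10 alpha cell markers summed to 30795 to 58937 CPM in dorsal Pdx1-low sets against 2408 to 6512 in dorsal Pdx1-high sets, where Irx1 was at 0. The 10 beta cell markers summed to 1222 to 3254 against 205 to 319 CPM, with Mafa and Ucn3 at 0 in both groups. The 11 endocrine progenitor markers summed to 1681 to 3338 against 58.4 to 501 CPM. Single genes weighed heavily in the sums. Gcg, in the alpha list, was at 22816 to 50290 against 2.85 to 109 CPM. Ins1, in the beta list, was at 191 to 2529 against 0 to 16.0 CPM. Pdx1, the sorted gene, is also in the beta list and went the other way, at 0 to 48.3 against 166 to 287 CPM. The 12 neuron and neural crest markers, whose cells use many of the same exocytosis genes, summed to 143 to 404 against 5.22 to 47.5 CPM. Of that list, Th was at 88.2 to 305 against 0 to 5.84 CPM, Tubb3 at 31.2 to 88.5 against 0.204 to 22.1 CPM and Elavl4 at 7.12 to 66.5 against 0 to 10.7 CPM, while Phox2a, Hand2 and Dbh were at 0 in every dorsal Pdx1-low set. The 9 hepatoblast markers summed to 2555 to 4941 CPM in dorsal Pdx1-low against 498 to 830.3 CPM in dorsal Pdx1-high sets. Their part in the result was not tested.

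On the ventral side the same split by Pdx1 level gave no call. Ventral Pdx1-low sets held Gcg at 4.08 to 78.0 CPM, against 22816 to 50290 CPM in dorsal Pdx1-low sets. Between 5 ventral Pdx1-low and 5 ventral Pdx1-high sets, edgeR called 0 of the 35 genes, with 3 higher and 7 lower at an unadjusted p under 0.05. At that p, 1234 higher and 1070 lower of all 17433 genes passed, and 0.964% of all genes passed after adjustment. DESeq2, for which no share of all genes was computed, called 3 lower in ventral Pdx1-low sets, Ptprn2, Rab37 and Syt13. Without ventral Pdx1-low set 6, edgeR called 1, Syt13 (adjusted p = 0.0137). Syt13 was at 0.0955, 0.201, 0.480, 0.749 and 10.3 CPM in Pdx1-low and 0.462, 23.0, 24.8, 30.3 and 40.2 CPM in Pdx1-high sets, and the groups overlapped in 1 set. The difference between the sides was itself tested: 25 of the 35 genes had a lower low-minus-high change in ventral than in dorsal cells and none a higher one, where 4.96% of all genes had a lower one. They covered 5 of 6 cargo genes, 6 of 6 processing genes, 3 of 3 granule membrane genes, 5 of 8 Rab GTPases and effectors, 2 of 3 synaptotagmins, 3 of 4 SNAREs and complexin, and 1 of 5 priming and docking genes. Rab3a lost this call when any 1 of 11 sets was left out (adjusted p = 0.0556 to 0.0879), and 6 others lost it without at least 1 set: Scg2 (adjusted p = 0.053 to 0.112), Snap25 (0.0515 to 0.0558), Scg3 (0.267), Scg5 (0.0561), Baiap3 (0.187) and Cplx2 (0.102). Over sets of 5 or more cells, Scg2 (0.12) and Snap25 (0.145) lost it.

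Compared directly, ventral Pdx1-low sets had lower levels than dorsal Pdx1-low sets for 31 of the 35 genes and a higher level for none, while 11.1% of all genes were lower. This comparison and that with dorsal Pdx1-high cells share the dorsal Pdx1-low sets. The same label covers groups with different cell type markers. Endocrine progenitor markers summed to 1.44 to 33.6 CPM in ventral against 1681 to 3338 CPM in dorsal Pdx1-low sets. Hepatoblast markers summed to 2533 to 9785 against 2555 to 4941 CPM, and mesenchyme markers to 90.1 to 2143 against 60.5 to 234 CPM. The part of cell type in the side difference was not tested. The 4 that did not pass were Rab3b, Sytl4, Cadps and Cadps2. Scg3 was at 0, 0, 0.0624, 0.201 and 0.599 CPM in ventral against the dorsal 281 to 528 CPM (log2 fold change -11.19, SE 1.74, adjusted p = 2.96e-05), and Vgf at 0, 0, 0, 0 and 3.53 CPM against 6.07 to 39.8 CPM (log2 fold change -4.69, SE 1.66, adjusted p = 0.0435), a call lost when any 1 of 9 sets was left out (adjusted p = 0.0517 to 0.079). Among the enzymes, Pcsk1 was at 0, 0, 0.0624, 0.240 and 0.599 CPM against 39.0 to 563 CPM (log2 fold change -10.53, SE 1.08, adjusted p = 3.88e-08), and Cpe, the least changed, at 35.2, 53.1, 53.5, 56.9 and 69.5 CPM against 1221 to 2663 CPM (log2 fold change -5.31, SE 0.49, adjusted p = 8.75e-09). Cpe was thus low but present in every ventral set, and Pcsk1 near 0 in most.

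Ptprn2 had 2 reads in all ventral Pdx1-low sets and Rab37 had 1, against 240.0 ± 75.6 and 155 ± 20.4 CPM in dorsal ones (adjusted p = 1.23e-05 and 3.79e-06). Slc30a8 was at 0, 0, 0.240, 0.312 and 0.449 CPM in ventral Pdx1-low sets (log2 fold change -7.63, SE 1.53, adjusted p = 0.000498), which overlapped only dorsal set 5. Rab3d, the Rab3 form also found on exocrine granules, changed least among the Rabs that passed, with 0.805, 5.93, 7.49, 11.6 and 11.8 CPM in ventral and 40.1 to 214 CPM (median 141) in dorsal sets (log2 fold change -4.11, SE 0.93, adjusted p = 0.00133). Dorsal and ventral Pdx1-low sets did not overlap for any of these but Slc30a8. No read fell on Syt4 in ventral Pdx1-low sets, at least 443-fold lower than in dorsal ones (adjusted p = 0.0015). Syt7 was at 0.300, 0.437, 2.01, 2.16 and 6.04 CPM (log2 fold change -4.59, SE 1.16, adjusted p = 0.00429), Snap25 at 1.92, 2.43, 4.04, 7.65 and 10.2 CPM (log2 fold change -4.34, SE 1.16, adjusted p = 0.00608) and Vamp2 at 28.0, 44.9, 51.0, 59.6 and 63.6 CPM (log2 fold change -2.42, SE 0.42, adjusted p = 6.23e-05) in these ventral sets. Syt7 and Snap25 were thus low and Vamp2 present in every ventral set. Of the priming genes, Baiap3 was at 0, 0.0955, 0.201, 0.250 and 0.480 CPM (log2 fold change -10.82, SE 1.88, adjusted p = 9.90e-05) and Rims2 at 3.30, 3.34, 3.56, 5.04 and 10.9 CPM (log2 fold change -2.95, SE 0.82, adjusted p = 0.00788). Of the 31 genes that passed, Vamp2 differed least between the sides. Per transcript length, ventral Pdx1-low cells held Cpe (25.7 RPKM) and Vamp2 (22.4 RPKM) above the other members, with Stx1a next (6.10 RPKM).

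Pdx1-high cells of both sides held few of these genes, and 0 of the 35 passed edgeR's test between ventral and dorsal Pdx1-high sets, with 2 higher and 6 lower at an unadjusted p under 0.05. At that p, 941 higher and 885 lower of all 17433 genes passed, and 0.0172% after adjustment. DESeq2 called 1, Pam, lower in ventral sets, at 8.77, 49.8, 50.8, 70.9 and 89.0 CPM against 171, 210.0, 255, 307 and 538 CPM. Genes present in Pdx1-high cells of both sides included Vamp2 at 60.5 ± 18.4 and 43.8 ± 16.9 CPM (ventral and dorsal), Cpe at 37.4 ± 8.39 and 81.3 ± 23.8 CPM, and Syt13 at 23.8 ± 14.6 and 22.4 ± 11.0 CPM.

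Counted cell by cell, dorsal Pdx1-low cells held most of the genes each, and cells of the other Pdx1 gates few. A gene was counted as held by a cell at 10 CPM or more. In dorsal Pdx1-low cells a median of 28 of the 35 genes was held (range 5 to 32), in dorsal Pdx1-high cells 6 (3 to 14), in ventral Pdx1-high cells 5 (2 to 10), and in ventral Pdx1-low cells 4 (1 to 8). In all, 39 of 40 dorsal Pdx1-low cells held 24 to 32 genes. The other, from set 4, held 5, with Pdx1 at 287 CPM and Gcg at 449 CPM. Gcg in the 39 cells ranged from 554 to 123347 CPM, with a median of 39975. Thinning each cell to 200000 reads left the median at 28 in dorsal Pdx1-low cells and at 6.5 in dorsal Pdx1-high cells.

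**Figure D2:**
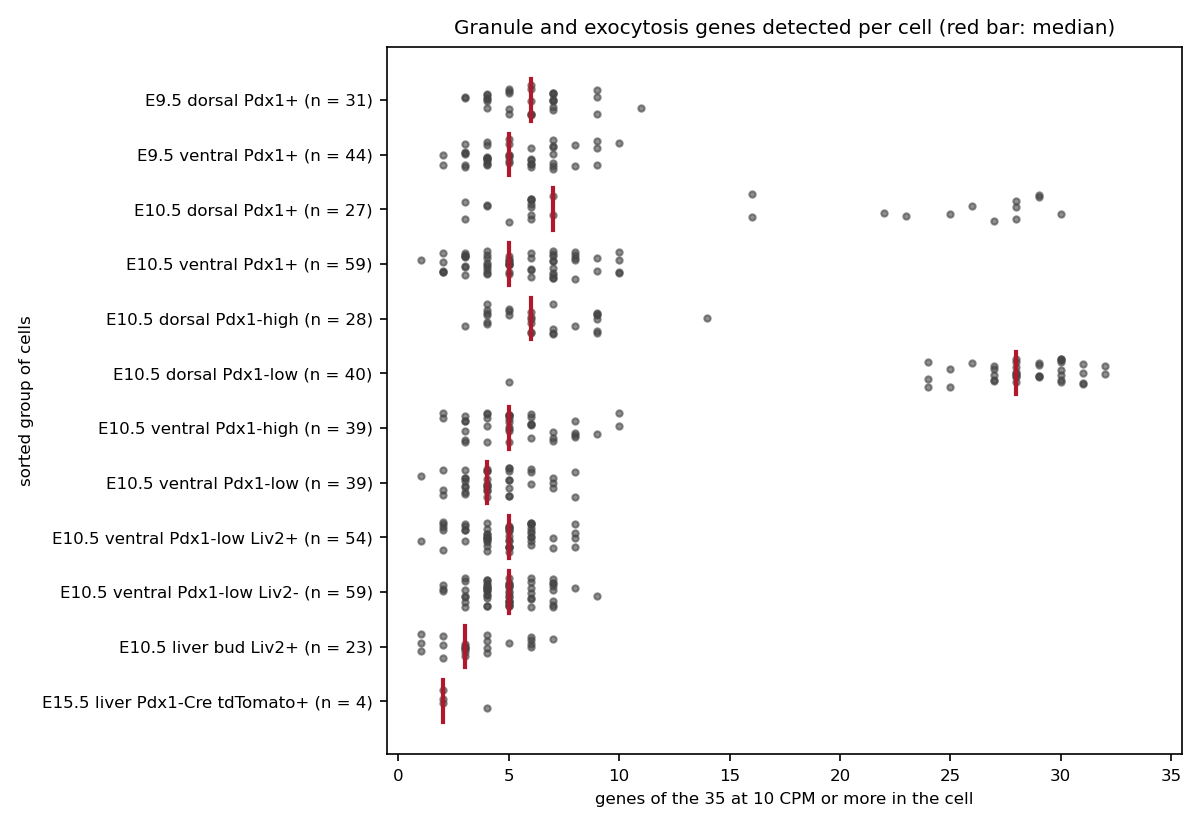
Number of the 35 genes at 10 CPM or more in each of 447 cells, by sorted group; each point is a cell (spread vertically for view), each red bar the group's median, and n counts cells. In the dorsal Pdx1-low group 39 of 40 cells hold 24 to 32 genes, and 13 of 27 dorsal Pdx1+ cells hold 16 to 30, while no cell of the other 10 groups holds more than 14.

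The unsplit dorsal Pdx1+ cells of E10.5 fell into 2 ranges: 13 of 27 cells held 16 to 30 genes and the other 14 held 3 to 7. A line at 15 genes was drawn after these values were seen. Pdx1 had a median of 2.33 CPM in the 13 cells and 235 CPM in the 14, and Gcg 17544 against 7.69 CPM. The 3 sets contributed unequally: 6 of 11 cells, 1 of 10 and 6 of 6 cells were above 15 genes. No cell of the 59 ventral Pdx1+ cells was, with a median of 5 (1 to 10), which by a limit of 3 counts allows a share of up to 5.08%. At E9.5 the 31 dorsal cells held a median of 6 (3 to 11) genes and the 44 ventral cells 5 (2 to 10), or 5 (2 to 10) in the 25 cells with the human stem-cell protocol label and 6 (2 to 9) in the other 19. Ventral Pdx1-low cells sorted as Liv2+ or Liv2- both held a median of 5, and liver bud cells 3 (1 to 7). These counts over cells were not tested.

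Within dorsal Pdx1-low cells the members were not held equally often. Cpe, Pam, Vamp2 and Rph3al were at 10 CPM or more in 40 of 40 cells. Scg2 was held by 31 of 40 cells (77.5%, 95% interval 61.5 to 89.2%), Syt4 by 23 of 40 cells (57.5%, 95% interval 40.9 to 73.0%), Cadps and Rab3c each by 22 of 40 cells (55.0%, 95% interval 38.5 to 70.7%), and Slc30a8 and Vgf each by 16 of 40 cells (40.0%, 95% interval 24.9 to 56.7%). Rab3b was held by 7 of 40 cells, Sytl4 by 3 of 40 and Cadps2 by 1 of 40. Intervals are exact Clopper-Pearson and cover counting error only, since cells of 1 set share their source. In dorsal Pdx1-high cells, whose median depth was 980160 reads against 1200820, Rph3al was held by 15 of 28 cells and Vamp2 by 22 of 28, while Slc30a8 was held by 0 of 28, which by the same limit of 3 counts allows a share of up to 10.7%. The 4 genes at that level in every cell are 2 enzymes, a SNARE and a Rab effector. A threshold in CPM favours long transcripts, so shares of different genes are not ranked here.

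In bulk libraries of Pdx1+ cells at E10.5, nearly all of the genes were lower on the ventral side. Of the 35 genes 34 passed, 33 as lower in ventral libraries and 1 (Sytl4) as higher, and Rab3b did not pass. Of all 17690 genes tested, 24.7% passed, 2564 as lower and 1810 as higher. The median log2 fold change of the 35 was -3.17, against -0.03 for all genes, and it was largest in size for granule membrane (-5.38, or -4.93 with Slc30a8, which drew no ventral read, at its bound) and cargo genes (-5.16), whose order depends on that bound, and smallest for SNAREs and complexin (-1.40). Summed, the genes took 0.385% of the scaled library total in dorsal and 0.0461% in ventral libraries. In bulk samples, fewer cells of a type and less RNA per cell cannot be told apart.

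Among the cargo genes, Resp18 was at 11.9 and 9.54 CPM in the dorsal libraries and 0.103 and 0.0831 CPM in the ventral ones, with 2 ventral reads in all (adjusted p = 1.02e-07). Chga was at 125 and 114 CPM in dorsal and 4.82 and 4.07 CPM in ventral libraries (log2 fold change -4.76, SE 0.27, adjusted p = 3.48e-08). Chgb had the smallest change of the 6, at a log2 fold change of -4.57 (SE 0.23). Every ventral value lay below every dorsal one, a description without a share over all genes. Pcsk2 was at 284 and 313 CPM in dorsal and 6.05 and 2.99 CPM in ventral libraries (log2 fold change -6.08, SE 0.33, adjusted p = 1.26e-07), and Pam, at 625 and 661 CPM dorsally and 143 and 90.3 CPM ventrally, changed least among the enzymes (log2 fold change -2.47, SE 0.17, adjusted p = 8.60e-08). Pcsk1n, at 25.3 and 25.0 CPM dorsally and 2.15 and 1.16 CPM ventrally (log2 fold change -3.96, SE 1.10, adjusted p = 0.0306), lost its call without any 1 of the 4 libraries (adjusted p = 0.0843 to 0.165). Slc30a8 was at 3.11 and 2.61 CPM in dorsal libraries and drew no ventral read, at least 20.8-fold lower by the 3-read floor. Ptprn2, the other end of that class, had a log2 fold change of -4.93 (SE 0.13).

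In the release machinery, Rab3c was at 8.25 and 8.64 CPM in dorsal and 0.616 and 0.416 CPM in ventral libraries (log2 fold change -4.04, SE 0.30, adjusted p = 4.85e-08). Sytl4 (GRCm38 chromosome X, 133936385 to 133981812) went the other way, at 1.82 and 1.51 CPM in dorsal and 3.69 and 3.49 CPM in ventral libraries (log2 fold change 1.11, SE 0.19, adjusted p = 0.00134), both low levels. Rab3b was at 3.75 and 3.21 CPM dorsally and 2.98 and 2.91 CPM ventrally (adjusted p = 0.55). Every member but these 2 was lower ventrally. Among the synaptotagmins, Syt4 was at 4.39 and 3.11 CPM dorsally against 0 and 0.416 CPM ventrally (log2 fold change -3.99, SE 0.59, adjusted p = 9.65e-05) and Syt7 at 116 and 131 against 16.6 and 17.54 CPM (log2 fold change -2.85, SE 0.12, adjusted p = 5.44e-11). Cplx2 had the largest change of its class, from 173 and 211 CPM dorsally to 26.1 and 27.6 CPM ventrally (log2 fold change -2.84, SE 0.12, adjusted p = 6.01e-11). Stx1a, the plasma membrane syntaxin, had the smallest, from 31.9 and 30.4 to 18.98 and 23.7 CPM (log2 fold change -0.54, SE 0.14, adjusted p = 0.0101), and lost its call without dorsal library 1 or ventral library 1 (adjusted p = 0.0646 to 0.109). Baiap3 was at 256 and 317 against 18.5 and 24.0 CPM (log2 fold change -3.75, SE 0.22, adjusted p = 5.11e-08) and Unc13a at 67.7 and 67.1 against 36.6 and 34.8 CPM (log2 fold change -0.92, SE 0.18, adjusted p = 0.00171). Per transcript length, ventral libraries held Pam at 28.4, Cpe at 22.2 and Vamp2 at 19.1 RPKM, above all other members.

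Gcg stood at 2392 to 2439.9 CPM in dorsal and 6.65 to 36.5 CPM in ventral bulk libraries, and the 11 endocrine progenitor markers at 1167 to 1419 and 114 to 127 CPM. The 12 neuron and neural crest markers summed to 149 to 151 CPM in dorsal and 38.2 to 40.2 CPM in ventral libraries. Of that list, Th was at 41.8 to 49.8 CPM in dorsal and 1.54 to 1.66 CPM in ventral libraries, Tubb3 at 55.3 to 56.3 and 5.98 to 7.90 CPM, and Elavl4 at 17.4 to 18.7 and 2.57 to 2.58 CPM, while Prph was at 0.402 to 0.536 CPM in the dorsal libraries. Markers of other types were higher ventrally: hepatoblast markers summed to 4284 to 4689 CPM in ventral and 1489 to 1654 CPM in dorsal libraries, the 6 cardiac muscle markers to 1171 to 2036 and 6.53 to 24.6 CPM, and mesenchyme markers to 866 to 1289 and 345 to 359 CPM. The part of these cells in the result was not tested.

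At E14.5 nearly all of the genes were higher in the Ngn3-high gate, on both sides. In Ngn3-high against Ngn3-low libraries, 34 of the 35 genes were higher and 1, Cadps2, was lower, on the dorsal and on the ventral side alike. Of all genes, 29.2% were higher and 32.1% lower on the dorsal side, and 29.5% and 32.4% on the ventral side. The median log2 fold change of the 35 was 5.77 dorsally and 5.78 ventrally, against -0.01 and 0.00 for all genes. The genes took 2.12% of the scaled library total in dorsal and 2.44% in ventral Ngn3-high libraries. In Ngn3-low libraries they took 0.0557% dorsally and 0.0555% ventrally. The plot of all 35 genes by library shows the step between the gates.

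**Figure D3:**
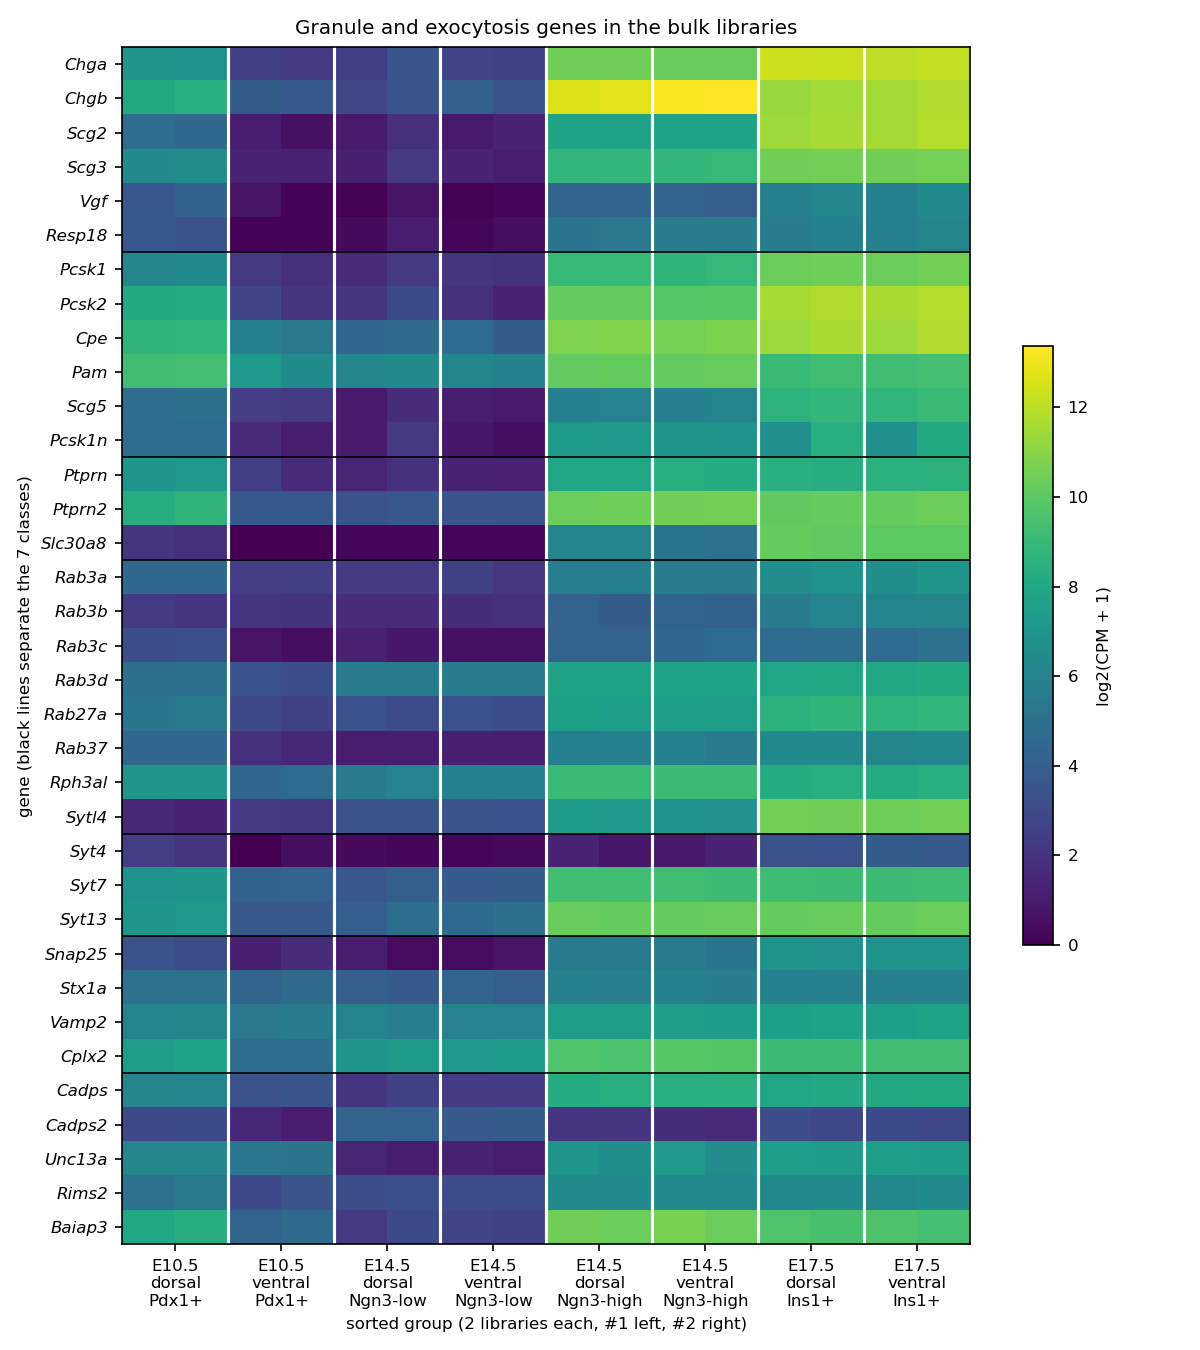
Level of each of the 35 genes, as log2(CPM + 1), in the 16 bulk libraries; columns are libraries (2 per sorted group), rows are genes, and black lines separate the 7 classes. Ngn3-high and E17.5 columns are bright for nearly all rows, ventral E10.5 and Ngn3-low columns are dark for most, and Cadps2 is the row that is darker in Ngn3-high than in Ngn3-low libraries.

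All 6 cargo genes rose from Ngn3-low to Ngn3-high cells on both sides. Chgb (GRCm38 chromosome 2, 132781278 to 132795079) had the largest change on both sides, from 6.19 and 9.83 to 6376 and 6917 CPM dorsally (log2 fold change 9.70, SE 0.28, adjusted p = 2.55e-12) and from 15.9 and 10.0 to 9805 and 10546 CPM ventrally. Chgb was also the most abundant of the 35 per transcript length in Ngn3-high cells, at 2426 RPKM dorsally and 3714 RPKM ventrally, ahead of Cpe at 859.7 and Chga at 750.2 RPKM dorsally. Vgf had the smallest change of the class, from 0.0619 and 0.626 to 18.7 and 19.6 CPM dorsally (log2 fold change 5.77, SE 0.49, adjusted p = 5.97e-07) and from 0.0648 and 0.178 to 17.2 and 15.8 CPM ventrally (log2 fold change 6.95, SE 0.58, adjusted p = 5.32e-07). Pcsk2 led the enzymes, from 2.97 and 7.01 to 1152 and 1148 CPM dorsally (log2 fold change 7.85, SE 0.33, adjusted p = 2.35e-09) and from 2.59 and 1.54 to 929.9 and 940.5 CPM ventrally (log2 fold change 8.83, SE 0.36, adjusted p = 1.63e-09). Pam changed least, from 71.7 and 81.7 to 1128 and 1193 CPM dorsally (log2 fold change 3.92, SE 0.18, adjusted p = 1.46e-10) and from 68.1 and 58.1 to 1151 and 1229 CPM ventrally (log2 fold change 4.24, SE 0.18, adjusted p = 7.02e-11). The gates did not overlap for any of these genes, a description without a share over all genes.

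All 3 granule membrane genes rose on both sides, Slc30a8 and Ptprn from near 0 in Ngn3-low cells. Slc30a8 was at 0.186 and 0.188 CPM in dorsal Ngn3-low and 61.8 and 61.6 CPM in dorsal Ngn3-high libraries (log2 fold change 8.30, SE 0.18, adjusted p = 1.13e-14). Ventrally, Ptprn had the largest change of the class, from 1.42 and 1.30 to 345 and 307 CPM (log2 fold change 7.89, SE 0.21, adjusted p = 1.19e-13), and Ptprn2 the smallest, from 10.6 and 10.0 to 1403 and 1456 CPM (log2 fold change 7.12, SE 0.14, adjusted p = 2.60e-15). Ptprn was smallest dorsally, from 1.61 and 2.69 to 242 and 242 CPM (log2 fold change 6.81, SE 0.20, adjusted p = 3.11e-13). All 8 Rab genes and effectors rose as well. Of these, Rab37 changed most dorsally (1.11 and 1.19 to 53.5 and 54.6 CPM) and Rab3c ventrally (0.518 and 0.533 to 20.1 and 24.5 CPM), while Rab3d, already at 46.3 and 49.9 CPM in dorsal Ngn3-low libraries, changed least on both sides (log2 fold change 2.12 (SE 0.09) dorsally and 2.20 (SE 0.09) ventrally). Rab3d, Rph3al, Vamp2 and Cplx2 were present in Ngn3-low cells too, with dorsal means of 48.1 ± 2.53, 53.2 ± 9.22, 57.2 ± 7.53 and 142 ± 20.5 CPM (SD, n = 2).

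Syt13 was the synaptotagmin with the largest change between the gates, from 15.1 and 27.3 to 1203 and 1199 CPM dorsally (log2 fold change 5.83, SE 0.23, adjusted p = 1.00e-10) and from 22.3 and 30.0 to 1186 and 1220.4 CPM ventrally. Syt4 was low in both gates, from 0.248 and 0.188 to 1.51 and 0.825 CPM dorsally (log2 fold change 2.45, SE 0.59, adjusted p = 0.00186), a call lost without dorsal Ngn3-high library 1 (adjusted p = 0.06), and from 0.130 and 0.237 to 0.892 and 1.45 CPM ventrally (log2 fold change 2.62, SE 0.62, adjusted p = 0.00162). Snap25 rose from 1.05 and 0.313 to 44.5 and 41.7 CPM dorsally (log2 fold change 5.96, SE 0.29, adjusted p = 1.42e-10) and from 0.324 and 0.652 to 46.9 and 36.0 CPM ventrally, and Vamp2 from 62.6 and 51.9 to 177 and 174 CPM dorsally (log2 fold change 1.62, SE 0.11, adjusted p = 2.05e-09) and from 60.0 and 59.4 to 180.1 and 162 CPM ventrally. Snap25 was thus near 0 in Ngn3-low cells, while Vamp2 was already present there. Baiap3 rose from 3.78 and 6.83 to 1394 and 1299.6 CPM dorsally (log2 fold change 7.99, SE 0.26, adjusted p = 2.53e-11) and from 5.96 and 5.16 to 1563 and 1251 CPM ventrally. The 2 CAPS paralogs parted: Cadps rose (log2 fold change 6.29 (SE 0.14) dorsally and 6.40 (SE 0.14) ventrally), while Cadps2 (GRCm38 chromosome 6, 23262773 to 23839421) fell from 18.3 and 17.6 to 3.07 and 3.21 CPM dorsally (log2 fold change -2.52, SE 0.22, adjusted p = 4.10e-08) and from 12.5 and 14.3 to 2.38 and 2.05 CPM ventrally (log2 fold change -2.60, SE 0.23, adjusted p = 4.61e-08).

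Between Ngn3-high cells at E14.5 and Ins1+ cells at E17.5 the genes went in both directions. On the dorsal side 22 were higher at E17.5, 6 lower and 7 did not pass, where 24.4% of all genes were higher and 23.1% lower. On the ventral side 19 were higher, 6 lower and 10 did not pass, where 26.6% of all genes were higher and 24.5% lower. The 6 that fell were the same on both sides: Chgb, Pam, Rph3al, Cplx2, Cadps and Baiap3. Stage and reporter differ together here, and their parts cannot be told apart. A plot of fold changes by gene sets the sides next to each other.

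**Figure D4:**
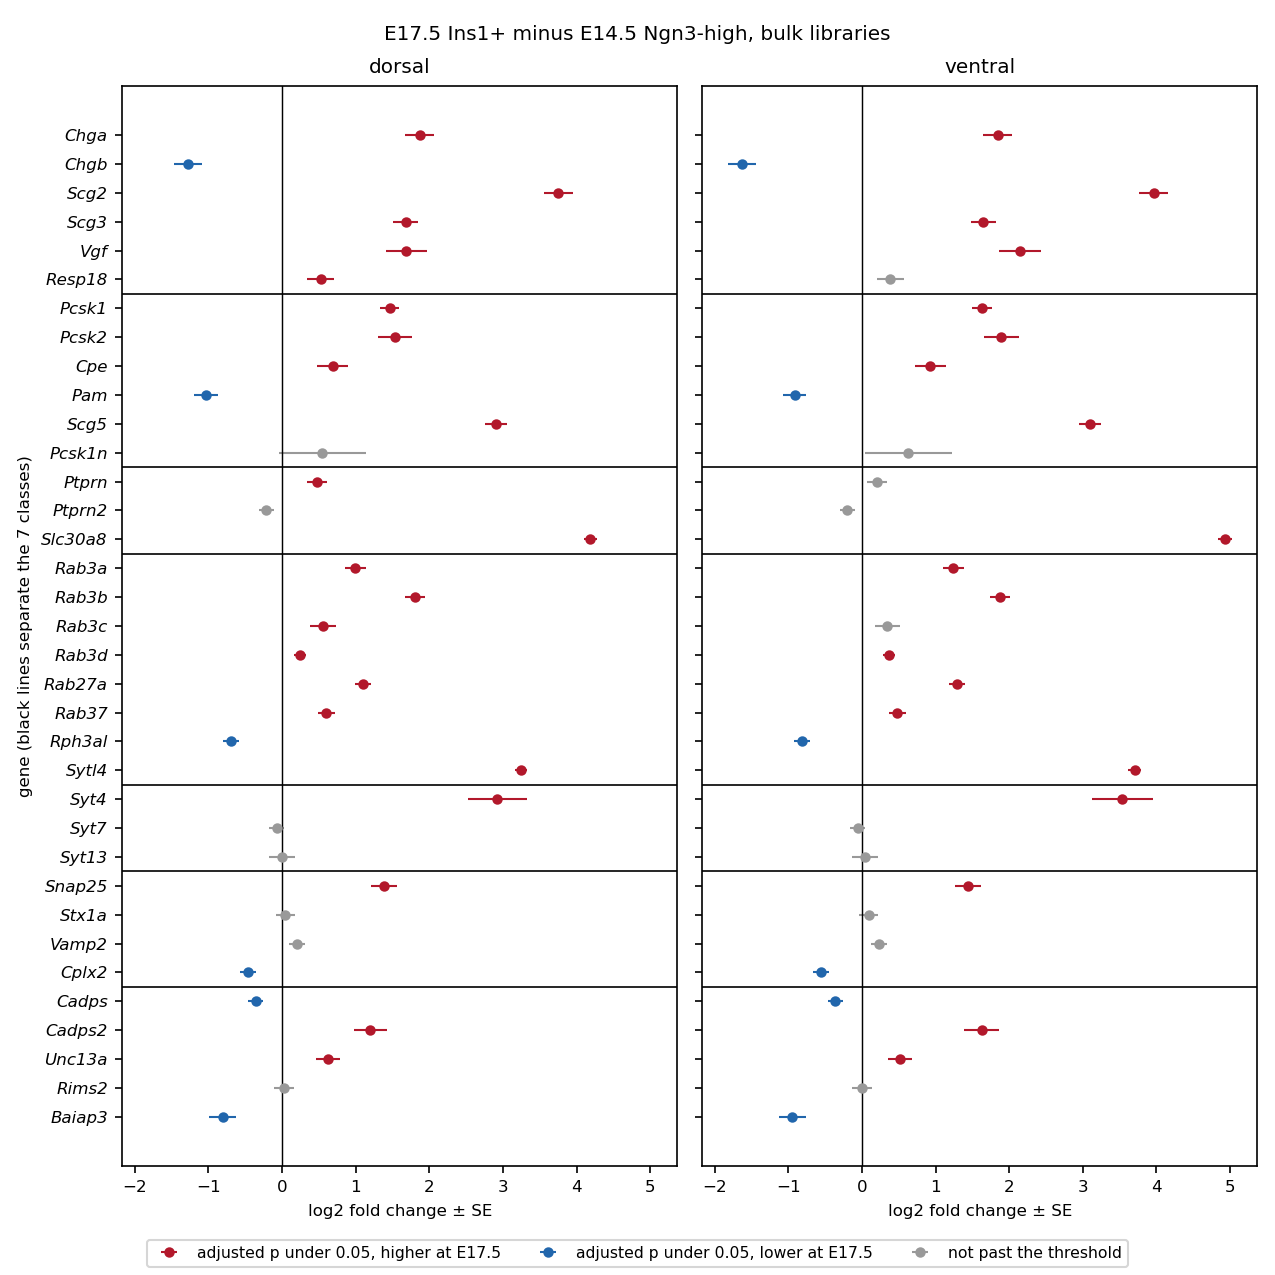
Log2 fold change ± SE of the 35 genes in E17.5 Ins1+ minus E14.5 Ngn3-high bulk libraries (2 against 2), dorsal on the left and ventral on the right; red points passed the test as higher at E17.5, blue as lower, and grey did not pass. Slc30a8, Scg2, Sytl4, Scg5 and Syt4 lie farthest to the right on both sides and Chgb farthest to the left.

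Cargo genes split. Scg2 rose most, from 219.7 and 211 to 2706 and 3102 CPM dorsally (log2 fold change 3.75, SE 0.20, adjusted p = 6.45e-09) and from 210.1 and 214 to 2999 and 3620.4 CPM ventrally (log2 fold change 3.96, SE 0.20, adjusted p = 3.48e-09). Chga rose on both sides, from 1396 and 1428 to 5298 and 5009 CPM dorsally (log2 fold change 1.87, SE 0.20, adjusted p = 6.12e-06). Chgb fell, from 6376 and 6917 to 2565 and 2919.6 CPM dorsally (log2 fold change -1.28, SE 0.19, adjusted p = 9.78e-05) and from 9805 and 10546 to 3030.0 and 3529 CPM ventrally (log2 fold change -1.63, SE 0.19, adjusted p = 1.03e-05). The order of the granins per transcript length thus turned: Chgb led in dorsal Ngn3-high libraries (2327 to 2525 RPKM, against 742 to 759 for Chga), and Chga in dorsal E17.5 libraries (2661 to 2815 RPKM, against 936 to 1066 for Chgb), with Cpe at 1385 and Scg2 at 1155 RPKM. Of the 3 genes with a full CRE in the window, Scg2 and Pcsk1 rose and Chgb fell. Resp18, the smallest call of the class dorsally, went from 34.4 and 38.9 to 47.1 and 58.2 CPM (log2 fold change 0.52, SE 0.19, adjusted p = 0.0304), and lost this call without dorsal Ngn3-high library 1 or 2 or dorsal E17.5 library 2 (adjusted p = 0.0665 to 0.236). It did not pass ventrally (adjusted p = 0.0966). Vgf and Scg3 rose on both sides (dorsal log2 fold changes 1.69 (SE 0.28) and 1.68 (SE 0.17)).

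Among the enzymes, the chaperone Scg5 rose most, from 54.0 and 60.3 to 397 and 457 CPM dorsally (log2 fold change 2.90, SE 0.15, adjusted p = 7.68e-10) and from 52.1 and 61.1 to 447 and 524 CPM ventrally (log2 fold change 3.10, SE 0.15, adjusted p = 3.54e-10). Pcsk1 and Pcsk2 rose as well, with dorsal log2 fold changes of 1.46 (SE 0.13) and 1.53 (SE 0.24). Cpe rose from 1741 and 1847 to 2581 and 3202 CPM dorsally (log2 fold change 0.69, SE 0.21, adjusted p = 0.0171), a call lost without dorsal Ngn3-high library 1 or 2 or dorsal E17.5 library 2 (adjusted p = 0.064 to 0.125). Pam fell from 1128 and 1193 to 524 and 612 CPM dorsally (log2 fold change -1.03, SE 0.16, adjusted p = 0.00012) and from 1151 and 1229 to 609.7 and 655 CPM ventrally (log2 fold change -0.91, SE 0.16, adjusted p = 0.000296). Pcsk1n did not pass on either side, and its E17.5 libraries differed by number: 103 and 345 CPM dorsally and 104 and 278 CPM ventrally. The enzymes that cut prohormones and the chaperone of Pcsk2 thus rose while the amidating enzyme fell.

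Slc30a8 had the largest change of all 35 genes, from 61.8 and 61.6 to 1167 and 1085 CPM dorsally (log2 fold change 4.19, SE 0.09, adjusted p = 2.89e-13) and from 35.6 and 32.2 to 1037 and 1024 CPM ventrally (log2 fold change 4.93, SE 0.10, adjusted p = 8.94e-14). Ngn3-high cells therefore held 5.48% of the E17.5 level dorsally and 3.29% ventrally. The same share was 7.41% and 6.41% for Scg2, 10.53% and 7.65% for Sytl4, 12.4% and 8.45% for Syt4, 13.4% and 11.7% for Scg5, and 27.4% and 27.9% for Chga. At the other end, Chgb in Ngn3-high cells stood at 242% and 310.3%, Pam at 204% and 188%, and Baiap3 at 175% and 192% of their E17.5 level. Ptprn rose slightly dorsally, from 242 and 242 to 351 and 324 CPM (log2 fold change 0.48, SE 0.13, adjusted p = 0.00864), and lost the call without dorsal Ngn3-high library 1 or 2 or dorsal E17.5 library 1 (adjusted p = 0.0553 to 0.0652). It did not pass ventrally (adjusted p = 0.225), and Ptprn2 passed on neither side (adjusted p = 0.104 and 0.123).

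Of the Rab class, 7 rose dorsally and 6 ventrally, and Rph3al fell on both sides. Sytl4 rose most, from 154 and 149.6 to 1478 and 1408 CPM dorsally (log2 fold change 3.25, SE 0.09, adjusted p = 2.89e-13) and from 109 and 106 to 1350.3 and 1459 CPM ventrally (log2 fold change 3.71, SE 0.09, adjusted p = 8.94e-14). Rab3d rose least, from 208 and 209 to 237 and 256 CPM dorsally (log2 fold change 0.24, SE 0.08, adjusted p = 0.0242), and lost this call without dorsal Ngn3-high library 1 or 2 or dorsal E17.5 library 2 (adjusted p = 0.0989 to 0.224), as did Rab3c (adjusted p = 0.0747 to 0.123). Ventrally Rab3d went from 209 and 213 to 253 and 291 CPM (log2 fold change 0.36, SE 0.08, adjusted p = 0.00174). Rab3c did not pass ventrally (adjusted p = 0.108) but did without ventral E17.5 library 1 (adjusted p = 0.0435), and Rab37 lost its ventral call without ventral Ngn3-high library 2 (adjusted p = 0.054). Rab3a, Rab3b and Rab27a rose on both sides, with dorsal log2 fold changes of 1.00 (SE 0.14), 1.80 (SE 0.14) and 1.10 (SE 0.11). Rph3al fell from 521 and 519.8 to 304 and 343 CPM dorsally (log2 fold change -0.69, SE 0.11, adjusted p = 7.23e-05) and from 573 and 563 to 301 and 348 CPM ventrally (log2 fold change -0.81, SE 0.11, adjusted p = 1.21e-05). The 2 Rab27 effectors of the list, Sytl4 and Rph3al, thus moved in opposite directions.

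In the fusion machinery, Syt4 was the only synaptotagmin to pass, from 1.51 and 0.825 to 9.70 and 9.19 CPM dorsally (log2 fold change 2.93, SE 0.41, adjusted p = 2.08e-05) and from 0.892 and 1.45 to 14.6 and 13.0 CPM ventrally (log2 fold change 3.54, SE 0.41, adjusted p = 2.85e-06). Syt7 (dorsal log2 fold change -0.07 (SE 0.10)) and Syt13 (0.00 (SE 0.18)) did not pass on either side. Snap25 rose from 44.5 and 41.7 to 118 and 107 CPM dorsally (log2 fold change 1.38, SE 0.17, adjusted p = 1.52e-05) and from 46.9 and 36.0 to 112 and 112 CPM ventrally (log2 fold change 1.44, SE 0.17, adjusted p = 9.48e-06), and Cplx2 fell from 821 and 769 to 581 and 573 CPM dorsally (log2 fold change -0.46, SE 0.11, adjusted p = 0.00192) and from 933 and 893 to 626 and 614 CPM ventrally (log2 fold change -0.56, SE 0.11, adjusted p = 0.000358). Stx1a and Vamp2 did not pass on either side (dorsal log2 fold changes 0.04 (SE 0.13) and 0.20 (SE 0.11)).

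The CAPS paralogs again parted. Cadps2 rose from 3.07 and 3.21 to 7.94 and 6.38 CPM dorsally (log2 fold change 1.20, SE 0.23, adjusted p = 0.000406) and from 2.38 and 2.05 to 7.09 and 6.57 CPM ventrally (log2 fold change 1.63, SE 0.24, adjusted p = 3.00e-05). Cadps fell from 311 and 328 to 236 and 263 CPM dorsally (log2 fold change -0.36, SE 0.10, adjusted p = 0.00772) and from 336 and 357 to 262 and 278 CPM ventrally (log2 fold change -0.36, SE 0.10, adjusted p = 0.00644). That call was lost without dorsal Ngn3-high library 2 or dorsal E17.5 library 1 (adjusted p = 0.0609 to 0.0675), and on the ventral side without ventral Ngn3-high library 2 (adjusted p = 0.052). Baiap3 fell, with log2 fold changes of -0.81 (SE 0.18) and -0.94 (SE 0.18), and Unc13a rose (0.63 (SE 0.16) and 0.52 (SE 0.16)). Unc13a lost its dorsal call without dorsal Ngn3-high library 2 (adjusted p = 0.0603) and its ventral call without ventral Ngn3-high library 2 or either ventral E17.5 library (adjusted p = 0.052 to 0.157). Rims2 did not pass on either side. Per transcript length Cadps stayed above Cadps2 in dorsal E17.5 libraries, at 45.5 against 1.44 RPKM.

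Markers of other cell types also differed between these libraries. The 10 acinar markers summed to 4088 to 4336 CPM in dorsal and 3815 to 3954 CPM in ventral E17.5 libraries, against 148 to 153 and 47.9 to 63.2 CPM in Ngn3-high libraries. The 8 mesenchyme markers summed to 864 to 2044 and 1188 to 2885 CPM at E17.5, against 276 to 317 and 324 to 339 CPM. The 10 beta cell markers summed to 77878 to 91042 and 81608 to 97507 CPM at E17.5, against 3275 to 3492 and 2898 to 3116 CPM. Ngn3-low libraries, where most of the 35 genes were low, held 4078 to 4647 CPM (dorsal) and 3325 to 3794 CPM (ventral) of acinar markers. Their part in the result was not tested.

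By side, Ngn3-high cells differed in 2 of the 35 genes, both lower ventrally, where 0.475% of all genes were lower. Slc30a8 was at 61.8 and 61.6 CPM in dorsal and 35.6 and 32.2 CPM in ventral Ngn3-high libraries (log2 fold change -0.87, SE 0.09, adjusted p = 0.000166), and passed with any 1 of the 4 libraries left out. Sytl4 was at 154 and 149.6 CPM dorsally and 109 and 106 CPM ventrally (log2 fold change -0.50, SE 0.08, adjusted p = 0.0069), and did not pass with any 1 of the 4 left out (adjusted p = 0.0701 to 0.139). Chgb, at 6376 and 6917 CPM in dorsal and 9805 and 10546 CPM in ventral Ngn3-high libraries, did not pass (log2 fold change 0.61, SE 0.19, adjusted p = 0.345). The sides did not overlap for Chgb, but this held for 19 of the 35 genes, of which most did not pass. That count is a description without a share over all genes. DESeq2 called Ptprn higher in ventral libraries, at 345 and 307 against 242 and 242 CPM (adjusted p = 0.00771, against 0.353 in edgeR). Over the same libraries Gcg was at 2172 to 2238 CPM dorsally and 209.7 to 248 CPM ventrally, and Ins1 at 514 to 558 and 412 to 469 CPM. Their part was not tested.

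Ngn3-low cells of the 2 sides differed in 0 of the 35 genes in edgeR and in DESeq2, with 2 higher and 4 lower in ventral cells at an unadjusted p under 0.05 in edgeR. At that p, 350 higher and 249 lower of all 17690 genes passed, and 0.017% after adjustment. Without dorsal Ngn3-low library 1, Chga and Scg3 were called lower in ventral cells (adjusted p = 0.0203 and 0.00574). At E17.5 edgeR and DESeq2 also called 0 of the 35, with none at an unadjusted p under 0.05 in edgeR (243 higher and 281 lower of all 17690 genes passed there), and after adjustment edgeR called 0.0283% of all genes. The log2 fold changes of the 35 at E17.5, ventral minus dorsal, ran from -0.25 to 0.55. Slc30a8 was at 1167 and 1085 CPM in dorsal and 1037 and 1024 CPM in ventral E17.5 libraries (log2 fold change -0.13, SE 0.08, adjusted p = 1). Sytl4 was at 1478 and 1408 CPM dorsally and 1350.3 and 1459 CPM ventrally at that stage, and the sides overlapped.

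The changes of the side difference itself were tested in the same fit. From E10.5 to E17.5 the ventral-minus-dorsal difference rose for 31 of the 35 genes and fell for 1, Sytl4 (by 1.15 on the log2 scale, SE 0.21, adjusted p = 0.00136), where 8.65% of all genes rose and 4.08% fell. Rab3b, Stx1a and Pcsk1n did not pass. Sytl4 lost its call without dorsal E10.5 library 2 (adjusted p = 0.0544), Unc13a without any 1 of 7 libraries (0.0522 to 0.0869) and Vamp2 without any 1 of 4 (0.0579 to 0.0857). Pcsk1n passed without dorsal E17.5 library 2 (adjusted p = 0.0237). The 2 stages differ in sort as well as in age, so these cannot be told apart. Between the Ngn3 gates the side difference changed for 0 of the 35 genes in edgeR and in DESeq2, with 3 higher and 1 lower at an unadjusted p under 0.05 (264 higher and 453 lower of all 17690 genes passed there), and after adjustment for 0.0283% of all genes. Scg3 passed without dorsal Ngn3-low library 1 (adjusted p = 0.0156). From Ngn3-high to E17.5 cells it changed for 1 gene, Slc30a8 (log2 difference of 0.74 (SE 0.12), adjusted p = 0.0489), and for 0.0396% of all genes. This call was lost with any 1 of the 8 libraries left out (adjusted p = 0.0863 to 0.39). DESeq2 called Slc30a8 and Sytl4.

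Set side by side, dorsal Pdx1-low cells of E10.5 and the later endocrine libraries were led by different granule genes. The cell and bulk tables were normalized separately, so levels across them are set side by side with no comparison. Among the 35 genes, Cpe led per transcript length in dorsal Pdx1-low cells (1022 RPKM), Chgb in Ngn3-high cells (2426 RPKM dorsally) and Chga in E17.5 cells (2738 RPKM dorsally and 2307 RPKM ventrally). Pam stood at 372 RPKM in dorsal Pdx1-low cells, 283 in dorsal Ngn3-high and 138 in dorsal E17.5 libraries. Sytl4 was at 0.816, 40.5 and 384 RPKM and Slc30a8 at 21.4, 31.3 and 571 RPKM in the same 3 groups. Between Ngn3-high and E17.5 libraries, the summed share of the scaled library total went from 2.12% to 3.04% dorsally and from 2.44% to 3.13% ventrally. This is a description without a test. Scaling factors were 0.982 to 1.00 in Ngn3-high and 0.843 to 0.925 in E17.5 libraries, so the rise is smaller in unscaled reads.

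Other genes of the pathway were taken from 2 lists, 69 other exocytosis genes and 29 other granule and processing genes, of which 64 and 28 were tested in bulk and 63 and 28 in sets. In dorsal Pdx1-low against Pdx1-high sets, 19 of the 63 exocytosis genes were higher and 4 lower, and 9 of the 28 granule genes were higher and none lower. Syp, the granule and synaptic vesicle protein synaptophysin, averaged 90.6 ± 16.5 against 0.139 ± 0.218 CPM. Ica1, the islet autoantigen ICA69, averaged 109.7 ± 22.4 against 35.9 ± 15.3 CPM. In ventral against dorsal Pdx1-low sets, 3 exocytosis genes were higher and 23 lower, and 0 and 10 of the granule genes. Between ventral Pdx1-low and Pdx1-high sets, 2 exocytosis genes were lower and no gene of either list higher. Of all genes, 13% were lower in dorsal Pdx1-low than in Pdx1-high sets, and 13.9% higher in ventral than in dorsal Pdx1-low sets; the other shares stand above.

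In E10.5 bulk libraries, 26 of 64 exocytosis genes were lower and 2 higher in ventral cells, and 11 of 28 granule genes lower and 2 higher. Scgn, the calcium sensor secretagogin, averaged 0.103 ± 0.145 against 6.97 ± 1.37 CPM (ventral against dorsal), and Rimbp2, which links active zones to calcium channels, 3.36 ± 0.0435 against 57.3 ± 9.76 CPM. Cpm, a membrane carboxypeptidase, was higher in ventral cells, at 169 ± 9.41 against 65.1 ± 1.59 CPM. Across the Ngn3 gates, 42 of 64 exocytosis genes were higher and 8 lower on each side, and 20 of 28 granule genes higher and 3 lower. There, 29.2% of all genes were higher and 32.1% lower dorsally, and 29.5% and 32.4% ventrally. Rimbp2 averaged 577 ± 16.9 against 1.31 ± 0.715 CPM and Scgn 219 ± 6.18 against 0.531 ± 0.400 CPM in dorsal Ngn3-high against Ngn3-low libraries. From Ngn3-high to E17.5, 21 of 64 exocytosis genes were higher and 14 lower on each side. Of 28 granule genes, 15 were higher and 5 lower dorsally (16 and 6 ventrally). In this comparison, 24.4% of all genes were higher and 23.1% lower dorsally, and 26.6% and 24.5% ventrally. Rims3, an active-zone protein, averaged 391 ± 7.98 against 33.5 ± 1.53 CPM and Nucb2, the nesfatin precursor, 264 ± 9.99 against 40.1 ± 2.34 CPM in dorsal E17.5 against Ngn3-high libraries, while Sytl5, another Rab27 effector, averaged 42.4 ± 0.738 against 140.5 ± 4.74 CPM. No gene of either list passed between the sides in Ngn3-high, Ngn3-low or E17.5 libraries.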

How the data were processed

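Bulk and Smart-seq2 libraries were deposited as whole-number read counts per gene; the submitters' processing notes name TopHat2 2.1.0, Bowtie2, HTSeq 0.6.0 and GRCm38/mm10, and the strand setting of the counting is not given in the sources used here. Spike-in rows, 92 in number, were left out of totals and tests. The members and lists were chosen with earlier results of these data known.

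Counts of all 40824 genes were tested with edgeR 4.0.16 (R 4.3.3; TMM, filterByExpr, robust quasi-likelihood F test, two-sided), in 1 fit of 16 bulk libraries (17690 genes) and 1 of 37 summed sets (17433 genes), with Benjamini-Hochberg adjusted p-values over all genes and a threshold of 0.05. The code was tested on simulated data. CPM used TMM-scaled totals, with no pseudocount. RPKM, used only between genes, divided CPM by the gene length in the deposited tables. A fold against a group without reads used a floor of 3 reads over that group. Each cell's count of genes at 10 CPM or more was repeated after thinning to 200000 reads.

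Every member is named at least once. Per-sample values are given in each class and comparison for the members that passed with the largest and smallest log2 fold change and for any going against its class; of the pathway lists, members with the largest changes among those that passed at an average of at least 3 log2 CPM are named, and some genes of the lists are not reported here. Alternatives were DESeq2 1.42.0, RLE size factors, no filter, each library or set left out, sets of 5 or more cells, a block for the library or set number, and a threshold of 1 CPM. Figures were drawn with matplotlib 3.10.9.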

Additional observations from a re-analysis of the deposited data

Results flagged for a closer look

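Among E10.5 sets, 1 set stood apart from the others of its group in 5 of the 54 gene and group pairs examined. The limit used flags about 1 in 20 by chance if values are normally spread, which was not checked. Dorsal Pdx1-low set 2 accounted for 3 of the 5, and genes of the same set are not independent. This set is the smallest of its group, with 3 cells and 2944226 reads. In it, Cpe was at 1221 CPM against 2176 to 2663 CPM in the other 5 sets, Pam at 463 CPM against 1643 to 1848 CPM, and Pcsk1n at 470.0 CPM against 121.6 to 247 CPM. The carboxypeptidase and the amidating enzyme were thus lowest, and the Pcsk1 inhibitor highest, in the same set. Rph3al was at 159.7 CPM in dorsal Pdx1-high set 4 against 7.81 to 32.6 CPM in the other 4 sets, and Cplx2 at 48.0 CPM in ventral Pdx1-high set 4 against 2.77 to 11.1 CPM.

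The difference between the sides changed with the stage or the gate in 4 counts, each by a test of the difference itself. From E10.5 Pdx1+ to E17.5 Ins1+ bulk libraries, the ventral-minus-dorsal difference was higher for 31 of the 35 genes and lower for 1, Sytl4. Of all genes, 8.65% were higher and 4.08% lower. From Ngn3-high to E17.5 libraries it was higher for 1, Slc30a8, where 0.0396% of all genes passed. The Slc30a8 call was lost with any 1 of the 8 libraries left out (edgeR adjusted p = 0.0863 to 0.39). In E10.5 cells the low-minus-high difference was lower on the ventral side for 25 genes, where 4.96% of all genes were lower.

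Labelled tdTomato+ liver cells of Pdx1-Cre ROSA26-tdTomato embryos at E15.5, 4 cells of 1 set that entered no comparison, held 3 members in at least 1 cell above both 10 CPM and the highest E10.5 liver bud cell. Rab3d reached 102 CPM against 34.2 CPM in liver bud cells, Pcsk2 13.5 against 4.39 CPM, and Chga 11.8 against 11.2 CPM. With 1 set there is no test.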

How the results depend on the processing

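No call reversed under any alternative run. In bulk, leaving out 1 library gave 31 to 32 lower genes at E10.5 (33 with all), 16 to 21 higher at E17.5 dorsally (22), and 17 to 19 ventrally (19). In sets it gave 28 to 30 higher in dorsal Pdx1-low cells (30), 30 to 31 lower in ventral Pdx1-low cells (31) and 21 to 25 for the difference between the sides (25). Between the sides in Ngn3-high cells, leaving out 1 library gave 1 to 1 lower gene (2 with all), DESeq2 1 higher and no filter 2 higher (0 in the main test). In Ngn3-low cells, leave-one-out gave 0 to 2 lower and no filter 1 higher and 2 lower (0 and 0). The side difference between the Ngn3 gates had 0 to 1 higher in leave-one-out and 4 without the filter (0); that from Ngn3-high to E17.5 had 0 to 0 in leave-one-out and 2 in DESeq2 (1); that from E10.5 to E17.5 had 0 to 1 lower in leave-one-out (1). For ventral Pdx1-low against Pdx1-high sets, leave-one-out gave 0 to 1 lower and DESeq2 3 (0), and for Pdx1-high sets by side DESeq2 gave 1 lower (0).

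Without the filter on low counts, Pcsk1n passed in comparisons where it did not otherwise, as in the side difference from E10.5 to E17.5 (adjusted p = 2.16e-59, against 0.110 in the main test), and the cause was not tested. Per gene, DESeq2 kept the call in 550 of 560 results, RLE size factors in 560, no filter in 543 and sets of 5 or more cells in 168 of 175, where Vgf, Snap25 and Unc13a were no longer called between dorsal gates (adjusted p = 0.0676, 0.0689 and 0.125), Vgf and Stx1a between Pdx1-low sets by side (0.248 and 0.0534), and Scg2 and Snap25 in the low-minus-high difference by side (0.120 and 0.145). A threshold of 1 CPM moved 8 of 24 cell shares outside their interval, and thinning 0.

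Bulk libraries with the same number correlated at r = -0.00508 to 0.769 in their deviations from group means, and same-numbered sets at -0.110 to 0.240, and the bulk value was positive in 7 of 8 comparisons. The labels do not say what a number marks, and 2 pairs a comparison cannot settle whether it pairs libraries. With it as a replicate block, 555 of 560 results kept their call. Resp18 passed ventrally from Ngn3-high to E17.5 (adjusted p = 0.0380), Stx1a in the side difference from E10.5 to E17.5 (0.0392) and Cadps between Pdx1-low sets by side (0.0492), while Unc13a between dorsal gates (0.0718) and Vgf between Pdx1-low sets (0.0553) no longer passed. Genes below about 1 CPM rest on few reads per library, and groups of 2 libraries limit the precision.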
